A study of Homo sapiens with 6 samples.

Results

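In T24 cells, an established human bladder cancer line, 27 of the 23152 genes in the count table were close to silent in the vector samples and carried reads in every oeRNF112 sample. A gene was chosen by its raw counts, as a row with at most 10 reads in each of the 3 vector samples and at least 20 in each of the 3 samples that overexpress RNF112, a RING-type E3 ubiquitin ligase. RNF112 itself and symbols beginning with LINC were left out of the choice. The opposite pattern, with at most 10 reads in every oeRNF112 sample and at least 20 in every vector sample, was met by 2 genes. Because these counts selected the genes, the values of the 27 genes are given as a description, without tests.

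Both groups were T24 cells grown in a serum-containing medium. One group carried the empty vector and the other the RNF112 overexpression construct, and each had 3 samples. For the transfection, the sample records describe siRNA delivered with a lipid reagent, whereas the group labels name a vector and overexpression. The time from transfection to harvest of the RNA, and whether these cells were transfected transiently or came from a stable line, is not given for these libraries in the sources used here. Nothing says whether the samples of a group were separate cultures, so p-values measure the spread between these samples only.

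A near-silent gene is one of which a library of this size samples only a handful of transcripts. Many genes of development, of immune sensing and of specialised tissues are in this state in a given cell line, often with a promoter that chromatin keeps closed. In bulk RNA, a low level in every cell and a higher level in a few cells cannot be told apart.

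The libraries held between 40029547 and 41259569 counted reads. Counts of RNF112 were 19 to 27 in the vector group against 29753 to 36963 in the oeRNF112 group, and those reads may include transcripts of the construct. In the fit with edgeR's quasi-likelihood test, 14467 genes passed the filter on low counts, and 1442 (9.97%) were called higher and 1178 (8.14%) lower in oeRNF112 at a Benjamini-Hochberg adjusted p under 0.05. When libraries were scaled by their totals only, without TMM factors for RNA composition, 2020 were called higher and 663 lower. All 27 genes passed that filter and all 27 were called higher, and in all 27 the lowest oeRNF112 count lay above the highest vector count, which was so for 25.0% of all genes tested. Since the same counts made the choice, nothing is read from these figures. The RNA carried the keratins of a urothelial carcinoma line, with KRT7 at 49889 to 64094 counts in vector and 39819 to 45394 in oeRNF112, while UPK2, UPK3A, KRT20 and TP63 stayed at 7 counts or fewer in every sample. The summed level of 12 urothelial markers ran from 3620 to 4640 CPM in vector and from 2790 to 3320 CPM in oeRNF112, where CPM is the count scaled by library size and TMM factors. KRT7, KRT18 and FOXA1 among them fell, with log2 fold changes of -0.48, -0.51 and -1.08 (edgeR adjusted p = 0.0226, 0.013 and 0.00132). The other tested ones, KRT8, KRT19, UPK1A, GATA3 and PPARG, did not pass. Their log2 fold changes were -0.33, -0.17, -0.04, 0.14 and 0.11 (edgeR adjusted p = 0.0759, 0.381, 0.975, 0.616 and 0.403).

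Of the 27 genes, 26 matched a RefSeq gene by symbol, 22 as protein-coding and 4 as long noncoding RNAs, and the locus LOC107986161 had no match. They lay on 15 chromosomes, and no pair of them lay within 100000 bases of each other. Protein-coding genes made up 84.6% of the matched genes, against 51.3% of the matched genes, without LINC symbols, that had at most 10 reads in each vector sample and 89.9% of the genes tested. LOC symbols, which name loci without a characterised product, made up 7.41% of the 27 genes, 40.8% of the genes near silent in vector and 4.54% of the genes tested. The median exonic length, derived from the deposited values, was 4280 bases for the 27 genes, 2420 bases for the 7237 genes with at most 10 reads in all 6 samples and 3980 bases for the genes tested. A longer transcript collects more reads at the same level, which bears on both thresholds of a rule on raw counts. The part of length in the choice was not tested.

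The promoters of 18 of the 27 genes were found in the RefSeq windows used here, which run from 250 bases before to 50 bases after the start on GRCh38.p14. The 250 upstream bases of 4 of them are shown as examples of motifs that few of the 18 windows held. C7orf57 has the inverted CCAAT boxes and a chromosomal neighbour described below, and FTCD has a TATA box. NOD2 has the E-box that MYC proteins can bind, and RNASE7 has a match to the AP-1 letters. FTCD, NOD2 and RNASE7 had ratios of observed to expected CpG of 0.354, 0.22 and 0.304. The median over the 18 was 0.777, so these windows are not typical of them. The starts of the windows of BMP4, NOD2 and PLEKHG1 are internal ones, 1841, 3342 and 33079 bases inside the gene's RefSeq span, and the other windows begin at most 254 bases inside it. Each sequence is printed 5′ to 3′ in the direction of transcription, with these motifs in capitals and GC boxes unmarked.
C7orf57, chr7:48035293-48035542, plus strand: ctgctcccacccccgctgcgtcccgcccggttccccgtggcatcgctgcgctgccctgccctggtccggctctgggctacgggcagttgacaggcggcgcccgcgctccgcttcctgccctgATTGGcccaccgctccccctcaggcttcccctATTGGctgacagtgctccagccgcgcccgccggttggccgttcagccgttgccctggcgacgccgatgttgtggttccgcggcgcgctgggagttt
FTCD, chr21:46155580-46155829, minus strand: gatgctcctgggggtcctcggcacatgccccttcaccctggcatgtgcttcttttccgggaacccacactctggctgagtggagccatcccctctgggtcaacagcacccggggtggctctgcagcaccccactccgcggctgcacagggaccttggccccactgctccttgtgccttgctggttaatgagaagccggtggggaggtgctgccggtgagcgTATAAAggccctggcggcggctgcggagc
NOD2, chr16:50696698-50696947, plus strand: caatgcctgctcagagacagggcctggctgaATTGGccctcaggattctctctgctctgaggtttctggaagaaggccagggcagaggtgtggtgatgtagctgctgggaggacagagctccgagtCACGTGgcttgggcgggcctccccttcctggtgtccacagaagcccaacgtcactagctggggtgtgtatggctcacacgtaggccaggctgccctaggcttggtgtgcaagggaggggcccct
RNASE7, chr14:21042112-21042361, plus strand: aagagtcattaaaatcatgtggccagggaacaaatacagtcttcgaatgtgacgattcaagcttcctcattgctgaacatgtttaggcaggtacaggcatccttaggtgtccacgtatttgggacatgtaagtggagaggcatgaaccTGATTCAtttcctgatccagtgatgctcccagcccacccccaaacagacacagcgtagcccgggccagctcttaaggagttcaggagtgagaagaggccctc

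In these sequences the CCAAT boxes of C7orf57 begin 128 and 96 bases before the start and read ATTGG, because the motif lies on the opposite strand. FTCD has TATAAA beginning 29 bases before the start. The E-box CACGTG of NOD2 begins 124 bases before its internal start, and NOD2 also has an inverted CCAAT box 219 bases before it. In RNASE7 the match to the AP-1 letters TGANTCA, in which N is any base, reads TGATTCA and begins 102 bases before the start. PLEKHG1, whose window is not shown, has an inverted TATA box 176 bases before its internal start.

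Across the 18 full windows of 300 bases, the median GC content was 70.3%, against 56.0% for genes near silent in all 6 samples and 65.3% for the genes tested. The ratio of observed to expected CpG dinucleotides was at least 0.6, a usual mark of a CpG island, in 66.7% of the 18 windows, in 36.1% of the windows of genes near silent throughout and in 81.3% of those of genes tested. The GC box GGGCGG was found on either strand in 13 of the 18 windows (72.2%), against 37.2% of the windows of genes near silent throughout and 69.3% of those of genes tested. CCAAT was found in 2 (11.1%), against 35.1% and 36.5%. TATAAA occurred in 2 (11.1%), against 13.2% and 5.83%. The AP-1 letters TGANTCA occurred in 1 window (5.56%), against 8.84% and 4.98%. The E-box CACGTG also occurred in 1 window (5.56%), against 6.64% and 9.82%. The cAMP response element TGACGTCA, an NF-kB site and an interferon response element were found in none of the 18 windows. Their shares were 1.52%, 1.78% and 4.05% of the windows of genes near silent throughout and 3.14%, 2.22% and 2.87% of those of genes tested. Both strands were searched for every motif, and a missing match says only that these letters were not in this window. These shares describe 18 chosen genes and were not tested.

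Among the signalling proteins that cells secrete, BMP4, a ligand of the TGF-beta superfamily that patterns embryonic tissues, had 3, 5 and 5 counts in vector and 24, 34 and 34 in oeRNF112 (log2 fold change 2.71, standard error 0.409). WNT11, a Wnt ligand that mostly acts without beta-catenin, had 3, 1 and 3 counts in vector and 23, 31 and 24 in oeRNF112 (log2 fold change 3.33, standard error 0.487). Vector replicate 1 held the lowest BMP4 count, and every oeRNF112 sample had at least 23 reads for both ligands.

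The receptors and sensors were LPAR3, OXGR1, PAQR9 and NOD2. LPAR3, a G protein-coupled receptor for lysophosphatidic acid, had 10, 4 and 10 counts in vector and 25, 29 and 27 in oeRNF112. OXGR1, a G protein-coupled receptor for 2-oxoglutarate, had 8, 9 and 6 counts in vector and 21, 22 and 35 in oeRNF112. PAQR9, a membrane protein of the progestin and adipoQ receptor family, had 3, 7 and 8 counts in vector and 26, 27 and 30 in oeRNF112. The counts of LPAR3 and PAQR9 were close together in the 3 oeRNF112 samples, whereas OXGR1 was highest in oeRNF112 replicate 3. NOD2, a cytosolic sensor of bacterial muramyl dipeptide that signals through RIPK2, had 9, 9 and 3 counts in vector and 25, 29 and 25 in oeRNF112. The log2 fold changes of these 4 genes lay between 1.66 and 2.10, below the median of 2.19 over the 27 genes.

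Inside the cell, PPP2R2C, a regulatory B subunit of protein phosphatase 2A, had 3, 4 and 5 counts in vector and 46, 48 and 47 in oeRNF112 (log2 fold change 3.44, standard error 0.364). Its highest oeRNF112 count was 1.04 times its lowest, the narrowest spread among the 27 genes. KNDC1, a guanine nucleotide exchange factor for Ras, had 6, 2 and 9 counts in vector and 45, 36 and 33 in oeRNF112. PLEKHG1 had 4, 10 and 3 counts in vector and 21, 24 and 30 in oeRNF112. Vector replicate 2 held most of the vector reads of PLEKHG1, and its log2 fold change went from 2.04 to 2.70 without that sample. The lowest value for PLEKHG1 over the alternative fits was 1.75. KCTD16, an auxiliary subunit of GABA-B receptors, had 7, 7 and 8 counts in vector and 26, 22 and 21 in oeRNF112.

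The regulators of transcription or chromatin were EGR2, MYCL, PROX1 and CHD5. EGR2, an immediate-early zinc finger transcription factor, had 4, 10 and 9 counts in vector and 25, 31 and 38 in oeRNF112. MYCL, a member of the MYC family, had 10, 7 and 10 counts in vector and 28, 23 and 26 in oeRNF112, and its log2 fold change of 1.42 was the smallest of the 27. PROX1, a homeobox transcription factor of lymphatic endothelium and liver, had 8, 9 and 1 counts in vector and 20, 29 and 39 in oeRNF112. The counts of PROX1 varied the most of these within oeRNF112, with the highest 1.95 times the lowest. CHD5, a chromatin remodeller best known from neural tissue, had 3, 1 and 6 counts in vector and 22, 20 and 35 in oeRNF112. Its log2 fold change went from 2.82 to 3.54 without vector replicate 3 and to 2.38 without vector replicate 2.

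Of the enzymes and carriers, FTCD, a liver enzyme of histidine breakdown that feeds the folate pool, had 2, 8 and 5 counts in vector and 47, 60 and 56 in oeRNF112 (log2 fold change 3.33, standard error 0.413). UCP1, the proton carrier through which brown fat makes heat, had 5, 5 and 10 counts in vector and 46, 40 and 47 in oeRNF112 (log2 fold change 2.63, standard error 0.373). CAPN12, a calcium-dependent protease of the calpain family, had 7, 2 and 7 counts in vector and 47, 43 and 38 in oeRNF112. All of these counts in oeRNF112 were at least 38, in genes of different pathways.

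Among the other secreted proteins, SERPING1, the inhibitor of complement C1 esterase, had 8, 3 and 10 counts in vector and 41, 28 and 30 in oeRNF112. RNASE7, an antimicrobial ribonuclease of skin and urinary tract epithelium, had 0, 7 and 0 counts in vector and 23, 35 and 20 in oeRNF112. All of its vector reads came from vector replicate 2. With every library kept, the fit put RNASE7 higher by 3.34 on the log2 scale, with 0.79 as standard error. The lowest value for RNASE7 over the alternative fits was 2.79. Without vector replicate 2, RNASE7 was 8.76-fold higher in oeRNF112, against a limit of 3 counts per vector library. That figure leaves out the only vector sample with reads, so it is not a lower limit for the whole set. PSG7, a pregnancy-specific glycoprotein of the placenta, had 7, 5 and 7 counts in vector and 28, 25 and 22 in oeRNF112. The PSG genes are near-identical copies of each other, and the share of reads assigned to PSG7 is therefore uncertain. The little characterised coding genes were C7orf57, with 4, 6 and 1 counts in vector and 41, 60 and 43 in oeRNF112, and CCDC85A, with 7, 8 and 10 against 31, 28 and 38.

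The gene with the widest difference was noncoding. LOC105370363, a long noncoding RNA gene on chromosome 13, had 0, 5 and 0 counts in vector and 88, 113 and 155 in oeRNF112 (log2 fold change 5.97, standard error 0.62), and the ratio of its mean counts was 71.2. All of its vector reads came from vector replicate 2 as well. Without that sample it was 40-fold higher in oeRNF112, against a limit of 3 counts per vector library. This figure, too, leaves out the only vector sample with reads and is not a lower limit for the whole set. The limits used for RNASE7 and LOC105370363 cover counting error in the vector samples only. CRMA, also a long noncoding RNA, had 3, 7 and 7 counts in vector and 43, 61 and 55 in oeRNF112. HIF1A-AS3 had 5, 10 and 8 counts in vector and 32, 42 and 51 in oeRNF112, and SLC7A11-AS1 had 6, 9 and 8 against 35, 28 and 37. Both are antisense genes to a gene that was abundant here. The library kit keeps the strand, but whether the counting used it is not given in the sources used here, and without strand the reads of such a pair cannot be told apart. The unmatched locus LOC107986161 had 9, 10 and 5 counts in vector and 40, 27 and 37 in oeRNF112.

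Together the 27 genes held 144, 170 and 164 reads in vector against 919, 995 and 1073 in oeRNF112. Their log2 fold changes ran from 1.42 to 5.97 with a median of 2.19, beside a median of 0.00267 over all genes tested. Of the oeRNF112 samples, replicate 1 was the lowest for 14 of the 27 genes.

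**Figure D1:**
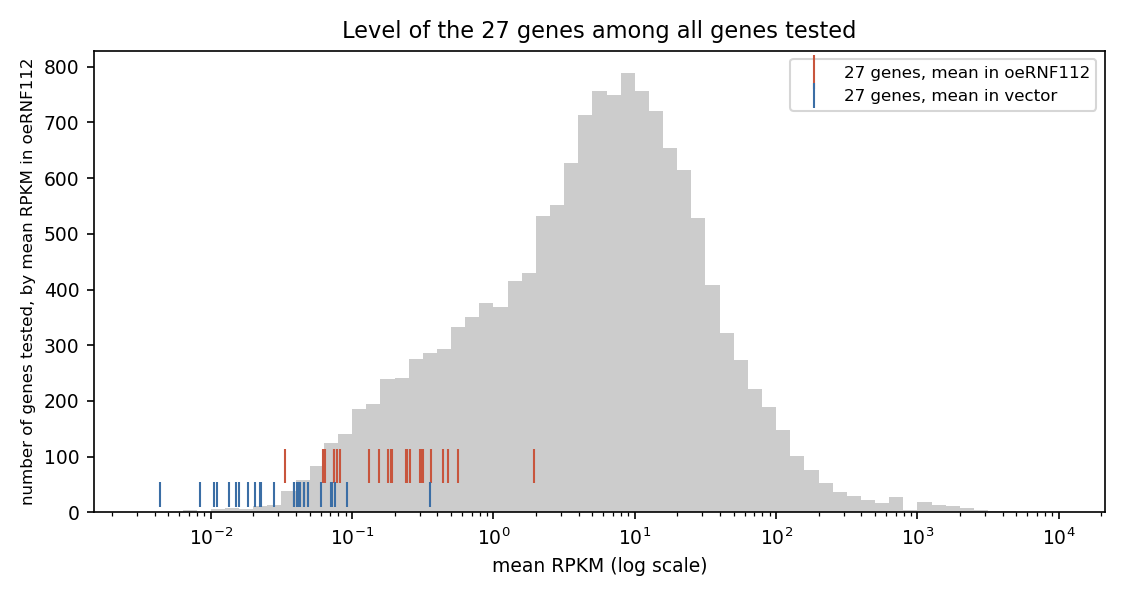
Mean RPKM in oeRNF112 of the 14467 genes tested (grey bars, number of genes on the y axis, logarithmic x axis), with the mean RPKM of each of the 27 genes in oeRNF112 (red ticks) and in vector (blue ticks). The red ticks run from 0.0336 to 1.94, all below the median of 5.51 over the genes tested.

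Even in oeRNF112 the 27 genes remained at low levels. Per length, as the deposited RPKM (reads scaled by exon length and by the total of the sample), their mean level in oeRNF112 ran from 0.0336 for KCTD16 to 1.94 for HIF1A-AS3, with a median of 0.242. The median over all genes tested was 5.51. The 27 levels lay between the 0.401 and 30.6 percentiles of the genes tested, with a median at the 9.1 percentile. In vector their mean levels ran from 0.00439 to 0.354 RPKM, with a median of 0.039. The plot of RPKM levels shows both sets below the bulk of the genes tested.

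The thresholds cut through a continuous range of counts. Just inside them lay CHD5, PROX1 and RNASE7, each with an oeRNF112 sample at 20 counts, and 9 genes with a vector sample at 10, of which MYCL, LPAR3 and CCDC85A had the lowest ratio of mean counts. Just outside on the side of oeRNF112 lay PDGFRA, a receptor tyrosine kinase, with 1, 3 and 8 counts in vector and 19, 29 and 19 in oeRNF112, LOC105371870 with 3, 8 and 5 against 25, 19 and 20, and the integrin gene ITGAX with 9, 10 and 9 against 37, 18 and 29. Just outside on the side of vector lay ACOD1, which makes itaconate, with 3, 11 and 3 counts in vector and 50, 54 and 60 in oeRNF112, LOC107986922 with 11, 3 and 7 against 59, 98 and 36, and the TNF receptor gene TNFRSF1B with 11, 6 and 5 against 55, 44 and 82. The 3 genes that met the thresholds but carry LINC symbols were LINC00520 with 7, 1 and 1 counts in vector and 43, 56 and 71 in oeRNF112, LINC01828 with 7, 1 and 7 against 34, 50 and 45, and LINC02522 with 3, 8 and 4 against 24, 28 and 27.

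The number of genes chosen depended on the scale of the counts. After scaling to a common library total 17 genes met the thresholds, and after scaling by totals and TMM factors 15 did, all of them among the 27. The TMM factors were 0.957 to 0.988 for vector libraries against 1.01 to 1.05 for oeRNF112 libraries, so that scaling raised the vector values and lowered the others. The reverse pattern had 1 and 2 genes under these scalings.

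The reverse pattern was found for HCAR2 and LTB. HCAR2, the receptor for niacin and beta-hydroxybutyrate, had 54, 25 and 35 counts in vector and 10, 7 and 6 in oeRNF112 (log2 fold change -2.37, standard error 0.422). LTB, the lymphotoxin beta chain, had 27, 25 and 32 counts in vector and 4, 2 and 7 in oeRNF112 (log2 fold change -2.74, standard error 0.449). In both genes the highest counts were at most 54, in the same low range as the 27 genes.

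The sizes of the pools from which either pattern could be drawn were similar. Without LINC symbols, at most 10 reads in each vector sample were found for 7812 genes and at most 10 in each oeRNF112 sample for 7513, and 7237 had at most 10 in all 6. Of the 7812 genes, 564, which include the 27, had every oeRNF112 count above every vector count and 114 had every one below. Because this pool was set by a ceiling on the vector counts, a gene in it had more room to rise than to fall. The pool of 7513 genes was not counted in this way, and nothing is read from the difference.

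To read the same measure in samples that did not choose the genes, the thresholds were applied to 2 replicates of each group and the remaining replicate was examined. With replicate 3 held out, 54 genes were chosen, and their median count in the held-out samples was 10 in vector and 33.5 in oeRNF112, with 49 of the 54 (90.7%) higher in oeRNF112. With replicate 1 held out, 56 genes were chosen, the medians were 7 and 26, and 55 (98.2%) were higher. With replicate 2 held out, 61 genes were chosen, the medians were 9 and 27, and 53 (86.9%) were higher. Among all genes tested, between 54.1% and 59.9% had a higher raw count in the same oeRNF112 sample than in the vector sample beside it. That share covers genes of every level and is not matched to weakly expressed genes. The 27 genes are those of each set that also met both thresholds in the held-out pair, which was 50%, 48.2% and 44.3% of the sets. For the reverse pattern, 10, 10 and 3 genes were chosen with replicates 3, 1 and 2 held out. Of these, 7, 9 and 3 were lower in the held-out oeRNF112 sample.

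Reads on other weakly expressed genes were also more frequent in oeRNF112. The 8770 genes with a mean of at most 10 counts over all 6 samples, without the 27, summed to 14191 ± 361 reads in vector and 18227 ± 434 in oeRNF112 (SD, n = 3 each), a ratio of 1.28, and to a ratio of 1.21 after TMM normalization. The ratio was 1.40 for the 3718 protein-coding genes among them and 1.20 for the 4217 long noncoding RNA genes. Genes with at least 1 read numbered 18727 ± 20.1 in vector and 19476 ± 24.3 in oeRNF112 (SD, n = 3 each). Each of these differences had p = 0.1 in a two-sided exact permutation test, the smallest value that 3 against 3 samples can give, and every oeRNF112 sample lay above every vector sample. The part of this broader difference in the counts of the 27 genes was not tested.

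The genes beside the 27 on the chromosome were not used in the choice. On each side the nearest gene tested within 100000 bases was taken, which gave 34 genes next to 22 of the 27. Of these, 9 were called higher (26.5%) and 1 lower by edgeR's quasi-likelihood test, beside the 9.97% of all genes tested that were called higher, and their median log2 fold change was 0.135. Of the 28 that do not overlap the chosen gene, 7 were called higher (25.0%). The higher count was 5 without oeRNF112 replicate 1.

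**Figure D2:**
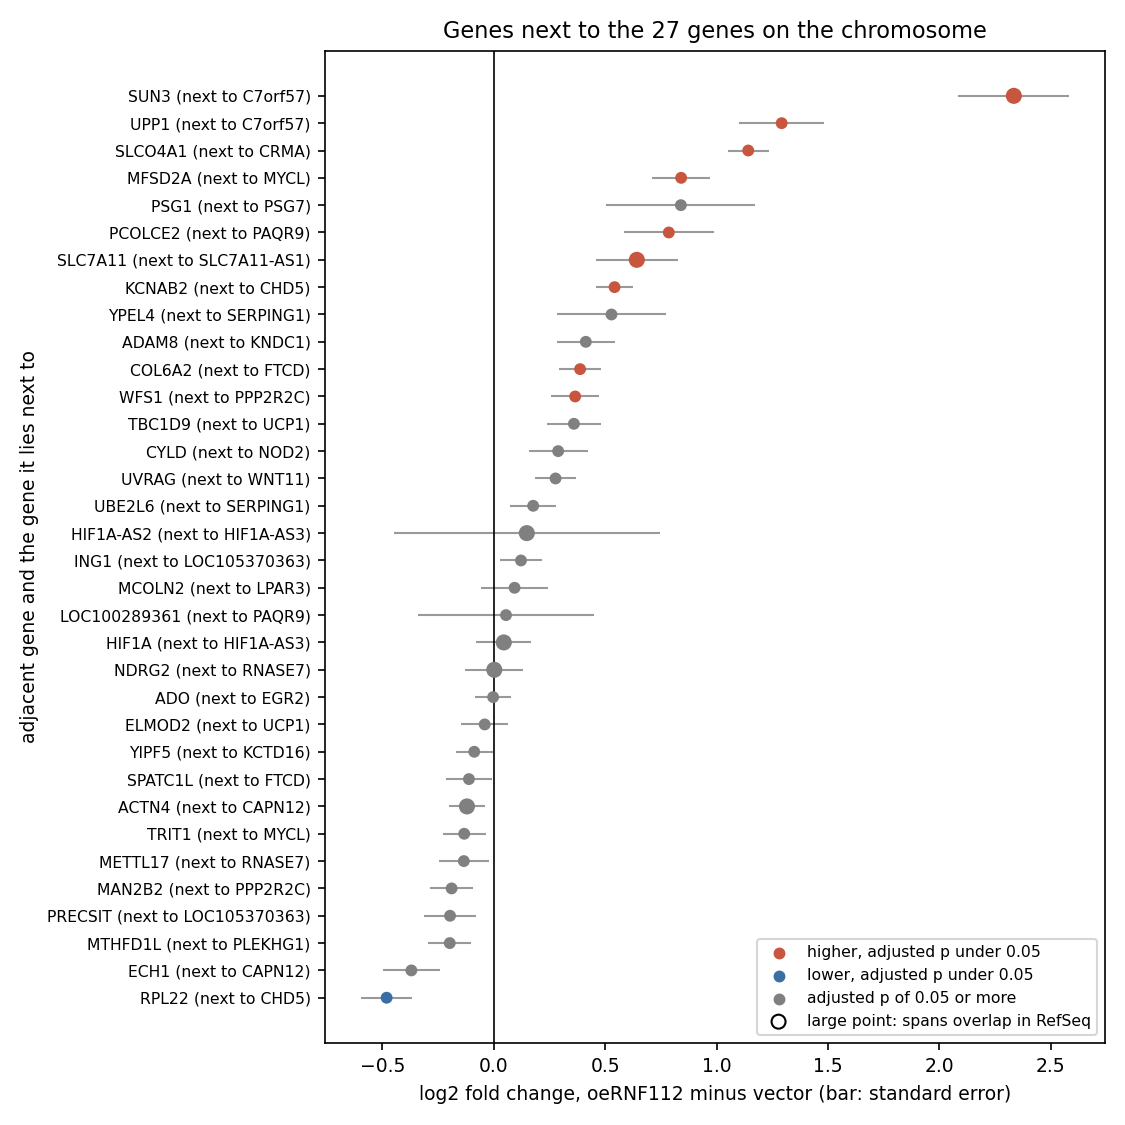
Log2 fold change, oeRNF112 minus vector, of the 34 tested genes that lie next to one of the 27 genes, with the standard error as a bar. Red points were called higher and the blue point lower at an edgeR adjusted p under 0.05, and large points mark genes whose span overlaps the chosen gene; SUN3 and UPP1 on either side of C7orf57 have the highest values, 2.33 and 1.29.

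Both neighbours of C7orf57 were called higher. SUN3, a nuclear envelope protein of spermatids that is annotated on the opposite strand with a span that overlaps C7orf57 in RefSeq, had 18, 18 and 27 counts in vector and 114, 106 and 118 in oeRNF112 (log2 fold change 2.33, standard error 0.249, edgeR adjusted p = 0.000414). UPP1, uridine phosphorylase, had 1431, 1031 and 1521 counts in vector and 2800, 4351 and 3166 in oeRNF112 (log2 fold change 1.29, edgeR adjusted p = 0.00209). UPP1 starts beyond the end of C7orf57, 27407 bases away, and was far more abundant than either. In both neighbours the groups did not overlap. Without knowing whether strand was used in the counting, the reads of C7orf57 and SUN3 where they overlap cannot be told apart.

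Near CRMA, the organic anion transporter SLCO4A1 had 4697, 5625 and 5308 counts in vector and 12547, 12089 and 11826 in oeRNF112 (log2 fold change 1.14, edgeR adjusted p = 0.000126). Beside CHD5, the potassium channel subunit KCNAB2 rose (log2 fold change 0.54, edgeR adjusted p = 0.00262), whereas the ribosomal protein gene RPL22 on the other side fell by 0.48 on the log2 scale (edgeR adjusted p = 0.0195). Beside MYCL, the lysophospholipid transporter MFSD2A rose from 273, 270 and 333 counts to 523, 579 and 559 (log2 fold change 0.84, edgeR adjusted p = 0.00263). PCOLCE2 beside PAQR9, COL6A2 beside FTCD, WFS1 beside PPP2R2C and SLC7A11 were also called higher, with log2 fold changes of 0.79, 0.39, 0.37 and 0.64, and each of these 4, like RPL22, lost its call when some single samples were left out.

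The genes that overlap one of the 27 gave different values. SLC7A11, the cystine transporter, lies across SLC7A11-AS1 and had 2215, 2709 and 1820 counts in vector and 3189, 3023 and 4920 in oeRNF112 (edgeR adjusted p = 0.0379). HIF1A, the hypoxia transcription factor that lies across HIF1A-AS3, had a log2 fold change of 0.04 (edgeR adjusted p = 0.831). ACTN4, across CAPN12, had -0.12, and NDRG2, across RNASE7, had 0.00, and neither passed the test. For these partners the strand limit given above applies.

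Relatives of the 27 genes by family were examined to see whether a whole family moved. The families were listed after the 27 genes were known. Of 65 tested relatives that are not among the 27, 10 were called higher (15.4%) and 2 lower in edgeR's test, beside 9.97% and 8.14% of all genes tested, and their median log2 fold change was 0.0975.

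**Figure D3:**
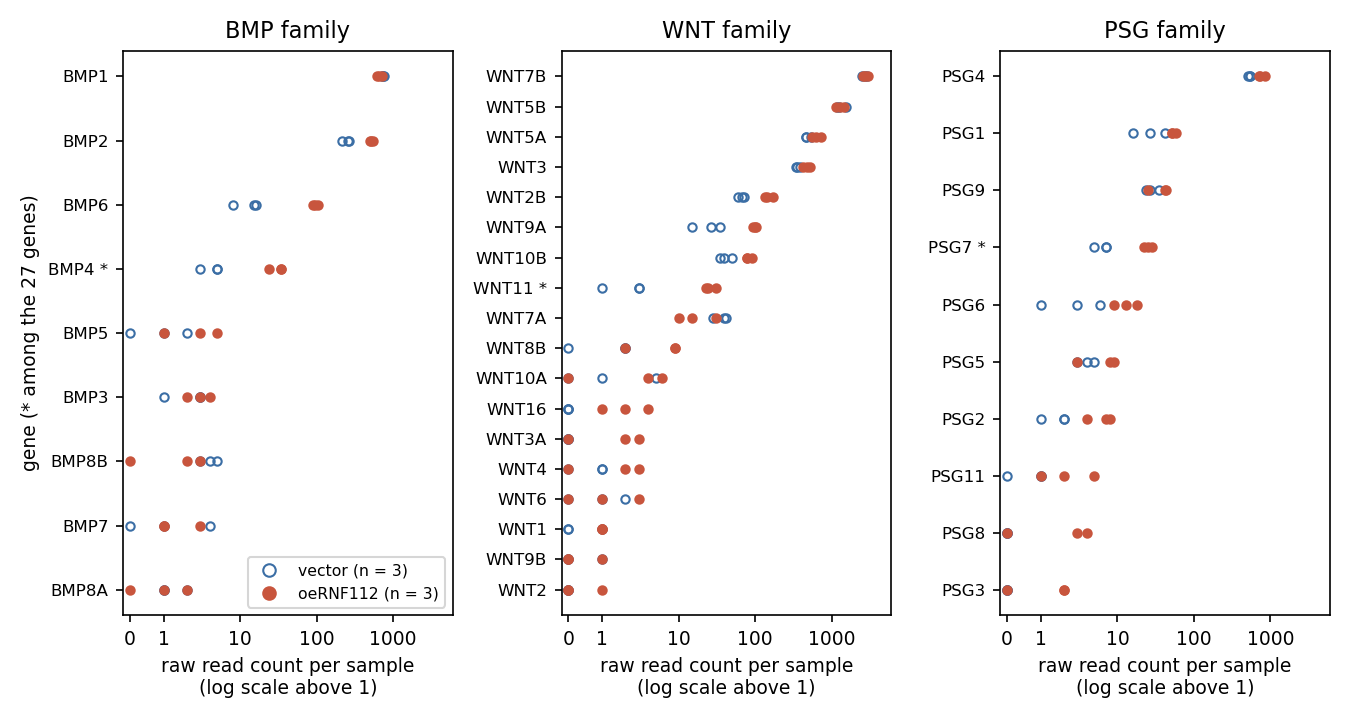
Raw counts per sample of the BMP, WNT and pregnancy-specific glycoprotein genes, on an axis that is logarithmic above 1, with open points for vector and filled points for oeRNF112 (n = 3 each) and genes ordered by mean count in oeRNF112; an asterisk marks a gene among the 27. In BMP6 and WNT9A, as in BMP4 and WNT11, the oeRNF112 points lie above the vector points, in BMP1 they lie below, and in WNT7B the groups overlap.

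In the BMP family, 2 of the 3 tested relatives of BMP4 rose. BMP6, a ligand that controls iron balance and bone formation, had 15, 8 and 16 counts in vector and 90, 103 and 96 in oeRNF112 (log2 fold change 2.80, edgeR adjusted p = 0.000411). BMP2, a close relative of BMP4, had 259, 213 and 268 counts in vector and 498, 542 and 516 in oeRNF112 (log2 fold change 0.99, edgeR adjusted p = 0.00132). BMP1, which is a protease rather than a ligand, had a log2 fold change of -0.23 (edgeR adjusted p = 0.133).

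In the WNT family, 3 of the 8 tested relatives of WNT11 rose and none fell. WNT9A had 26, 15 and 35 counts in vector and 94, 102 and 100 in oeRNF112 (log2 fold change 1.87, edgeR adjusted p = 0.003). WNT2B rose with a log2 fold change of 1.09 (edgeR adjusted p = 0.00392). WNT10B rose by 0.93 (edgeR adjusted p = 0.0215), a call lost when vector replicate 3 or oeRNF112 replicate 1 or 3 was left out. The most abundant Wnt genes, WNT7B and WNT5B, had log2 fold changes of -0.06 and -0.10 and did not pass the test.

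In the other families the chosen gene mostly stood beside relatives that did not pass the test. MYC, the abundant relative of MYCL, had 3237, 3222 and 3334 counts in vector and 3098, 3244 and 3262 in oeRNF112 (log2 fold change -0.11, edgeR adjusted p = 0.377). EGR1 and EGR3 had log2 fold changes of 0.35 and 1.29 (edgeR adjusted p = 0.163 and 0.0522). None of the 8 tested calpains other than CAPN12 passed, nor did UCP2 and UCP3, or any of 6 tested complement genes. Relatives with too few reads for the test are outside these statements. Among them CAPN6 had 1, 2 and 0 counts in vector and 10, 8 and 6 in oeRNF112, and CAPN8 had 0, 1 and 0 against 0, 1 and 1. LPAR1, the most abundant lysophosphatidic acid receptor, fell by 0.32 on the log2 scale (edgeR adjusted p = 0.0493), a call that most single-sample omissions removed. CHD3 fell by 0.58 (edgeR adjusted p = 0.00602). Of the membrane receptors related to PAQR9, PAQR3 and PAQR5 rose by 0.80 and 1.22 on the log2 scale (edgeR adjusted p = 0.00603 and 0.00263). RIPK2, the kinase downstream of NOD2, rose by 0.51 (edgeR adjusted p = 0.00428), and NOD1 had 0.08 (edgeR adjusted p = 0.682). KCTD12 and PSG4 rose by 0.49 and 0.46 (edgeR adjusted p = 0.0335 and 0.0163), both with calls lost without single samples.

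Pathway lists were written with earlier results of these data known. They do not hold every gene of a pathway, so a list that holds none of the 27 describes that list only. Over the table, 0.346% of the genes near silent in vector (without LINC symbols) are among the 27, and the counts for each list stand beside that share. The list of interferon-stimulated genes held none of the 27, with 8 of its 79 genes in the table near silent in vector. Of its 71 tested genes 44 were called higher (62.0%) and 5 lower (median log2 fold change 0.48). IFI6, MX1, MX2 and IFI44L had the smallest p-values, with log2 fold changes of 3.16, 2.04, 2.37 and 1.90. These 4 genes were expressed in vector too, with IFI6 at 842, 695 and 745 counts there and at 6451, 8570 and 6484 in oeRNF112.

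The list of cytokines, chemokines and growth factors held BMP4 and WNT11, among 50 of its genes that were near silent in vector. Of its other 61 tested genes 31 were called higher and 2 lower (median log2 fold change 0.49), with the smallest p-values for ANGPTL4, IL6, HBEGF and CCL20, whose log2 fold changes were 2.62, 1.66, 1.24 and 1.94. The list of immediate-early and AP-1 genes held EGR2, among 5 of its genes that were near silent in vector. Of its other 30 tested genes 1 was called lower and 14 higher (median 0.46), among them DUSP5 with 1.43 and NR4A1 with 1.21. The list of epidermal barrier genes held RNASE7, among 22 of its genes that were near silent in vector. Of its other 14 tested genes 7 were called higher and 1 lower (median 0.88). SERPINB2 and PI3 had the smallest p-values, with log2 fold changes of 2.68 and 2.63.

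The list of neuronal and synaptic genes held none of the 27, with 30 of its genes near silent in vector, and 7 of 19 tested were called higher and 1 lower (median 0.29). KCTD16, the GABA-B receptor subunit, and CHD5, known from neural tissue, are among the 27 but are not on this list. The list of p53 targets had no gene near silent in vector and so could hold none of the 27. The list of PPAR-responsive genes, with 24 genes in the table, had 9 and held none, which describes these listed genes only. Of their tested genes, 6 of 26 and 4 of 15 were called higher and 6 and 1 lower.

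Markers of other cell types were read beside the 27 genes, since several are known from other tissues. The hepatocyte markers ALB and APOA1 had 0 to 2 counts and the germ cell markers DDX4, SYCP3 and TEX11 0 to 3 counts in every sample, and the endothelial markers PECAM1, CDH5, VWF and KDR had at most 11. The summed level of 12 leukocyte markers ran from 35.6 to 39.1 CPM in vector and from 58.7 to 75.2 CPM in oeRNF112. CD68, a lysosomal protein that many cell types make, rose from 987, 870 and 955 counts to 2125, 2645 and 2103 (log2 fold change 1.21, edgeR adjusted p = 0.000312), and without it the sum of the other 11 ran from 12.9 to 14.1 CPM in vector and from 9.09 to 14.3 in oeRNF112. The leukocyte-defining PTPRC had 54, 37 and 40 counts in vector and 33, 24 and 26 in oeRNF112, and CD3E had 0 counts in 5 of the 6 samples. In the same list LAPTM5 fell by 0.88 on the log2 scale (edgeR adjusted p = 0.0308), and CD8A had 126, 131 and 121 counts in vector and 151, 221 and 143 in oeRNF112 (edgeR adjusted p = 0.223). LYZ had 4, 5 and 8 counts in vector and 97, 2 and 6 in oeRNF112, with replicate 1 apart from the others, and ITGAM had 2, 2 and 3 against 11, 3 and 7. The summed levels of fibroblast markers ran from 7 to 9.58 CPM in vector and from 9.77 to 10.7 CPM in oeRNF112, and those of neuron markers from 105 to 126 and from 113 to 131 CPM. Most of the neuron sum was TUBB3, at 3980 to 4964 counts, and MAP2 rose from 137, 123 and 96 counts to 328, 343 and 575 (log2 fold change 1.72, edgeR adjusted p = 0.00126). The part of leukocyte, fibroblast and neuron markers in the counts of the 27 genes was not tested.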

How the data were processed

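RNA of 3 vector and 3 oeRNF112 samples of T24 cells had been sequenced from a stranded mRNA kit. Per the submitters' processing notes, Trimmomatic 0.36, featureCounts and Subread 1.5.1 were used on GRCh38; the aligner's settings and the strand setting of the counting are not given in the sources used here. The authors deposited raw counts of reads per gene, and RPKM values that equal the count divided by the sample total and one gene length.

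Counts were fitted with edgeR 4.0.16 in R 4.3.3 (low-count filter, TMM factors, group only, quasi-likelihood test, Benjamini-Hochberg over 14467 genes). The fit was tested on simulated counts, in which only genes above the near-silent range were changed. That check therefore does not cover genes as weakly expressed as the members. The members were read from the raw counts with thresholds of 10 and 20. Symbols were matched to RefSeq (GRCh38.p14) for 21947 of 23152 genes.

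The members and gene lists were chosen with earlier results of these data known. RNF112, the members with the highest level in oeRNF112, genes near the thresholds, the reverse pattern, up to 4 leading non-members per list and 5 adjacent genes were named by rule; the remaining members, adjacent genes, families, roles and single markers were named after their values were seen. Alternatives were DESeq2 1.42.0, library totals, other filters, other thresholds and scalings, a replicate block and leaving out each sample. Replicate numbers were checked for pairing: deviations of same-numbered samples had correlations of -0.181, -0.539 and -0.454, and the samples were not treated as pairs. No pair of samples agreed within sampling noise.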

Additional observations from a re-analysis of the deposited data

How the results depend on the processing

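The number of genes near silent in vector and present in oeRNF112 was 27, and it became 4 with at most 5 counts in vector, 6 with at least 40 in oeRNF112, 17 with counts scaled to a common total and 15 with TMM scaling. The reverse pattern had 2 genes, and 0, 0, 1 and 2 under the same settings. Leaving out each sample in turn relaxes the rule, and it gave 32 to 45 genes and 2 to 6 of the reverse pattern. With a replicate block, although the numbers do not pair the samples, 618 genes were called higher and 258 lower, and 5 adjacent genes were higher. With library totals in place of TMM factors 2020 genes were higher and 663 lower. Without single samples, between 702 and 1841 genes were higher, between 359 and 1546 lower, and between 5 and 11 adjacent genes higher. Up to 3 reads are compatible with a count of 0, which limits what the lowest counts can show.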
